A study of Mus musculus with 6 samples.

Results

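Chemokines are small secreted or membrane-anchored proteins that guide leukocytes along gradients and across the vessel wall through G protein-coupled receptors. They are classed by the spacing of their first cysteines into the CC, CXC and CX3C groups, and endothelial cells both make them and display them to passing blood cells. The genes described here are the 9 endothelial chemokine genes Ccl17, Cx3cl1, Cxcl16, Ccl2, Ccl7, Ccl5, Cxcl1, Cxcl10 and Cxcl12, taken by name from the 29955 genes of the deposited table. All 9 were listed there.

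The cells were MS-1, an immortalised mouse endothelial line, so they stand for 1 line in culture and not for a vessel. They were transfected with a locked nucleic acid inhibitor of miR-31, of miR-27, or with a negative-control inhibitor, and each transfection was kept for 72 h with 1 ng/ml TGF-β2 or without it. TGF-β can drive endothelial cells toward a mesenchymal state with an altered set of secreted factors, and the question addressed was what part the microRNAs have in that change. There were 6 libraries, 1 for each of the 6 conditions: the miR-31 inhibitor with TGF-β2, the miR-27 inhibitor with TGF-β2, the negative control with TGF-β2, and the same 3 inhibitors untreated. RNA was measured as FPKM (fragment number per unit of transcript length and of sequenced total). No condition had a second library and separate cultures are not described in the labels, so no p-value below measures the spread between cultures. In the fit with TGF-β2 and inhibitor terms, the spread is how far the TGF-β2 change differs between transfections, moderated across genes. A TGF-β2 response particular to 1 inhibitor is thus counted there as spread.

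Across the whole table, 11680 to 11791 genes reached 1 FPKM in a library. Fragment totals are not in the table. The spacing of very low values gave relative depths of 0.865, 0.817 and 0.894 for the TGF-β2 libraries with the miR-31, miR-27 and negative-control inhibitors. The untreated libraries with the miR-31 and miR-27 inhibitors stood at 0.903 and 0.861, where the untreated negative-control library is 1. The TGF-β2 library of the miR-31 inhibitor stood further from its negative control than the others: 51 genes (0.432%) were higher and 30 (0.254%) lower by 1 or more in log2(FPKM + 1), against 13 and 10 for the miR-27 inhibitor with TGF-β2. Mir31, Mir27a and Mir27b were listed at 0 in all 6 libraries, which were not made for mature microRNAs, so the inhibition itself was not measured. Of 10 endothelial markers, 9 were tested, with Pecam1 at 593 FPKM or more and Cdh5 at 167 FPKM or more in every library, while Cldn5 was at or under 0.0359 FPKM. With TGF-β2, 2 of the 9 rose, 3 fell and 4 did not pass, where 22.7% of all genes tested rose and 27.5% fell. Of 11 listed leukocyte markers, Ptprc, Cd3e and Itgam were at or under 0.0257 FPKM in every library. Their summed level, nearly all of it from the lysosomal gene Cd68, was 108 to 138 FPKM with TGF-β2 and 171 to 213 FPKM untreated, and of the 2 tested Cd68 fell and Lyz2 rose. Markers too low to be tested went both ways. Cd14 was at 0.560 to 0.832 FPKM with TGF-β2 and 0.266 to 0.349 FPKM untreated, and Csf1r at 0.312 to 0.342 and 0.0390 to 0.0840 FPKM. Itgax was lower with TGF-β2, at 0.0327 to 0.0651 FPKM against 0.172 to 0.198 FPKM untreated. Of the 7 fibroblast and mural markers, Rgs5, Cspg4, Dcn, Lum and Thy1 were all under 0.5 FPKM, and the list summed to 18.2 to 22.6 FPKM with TGF-β2 and 2.50 to 3.34 FPKM untreated, nearly all from Pdgfra and Pdgfrb. Of 6 epithelial markers, Epcam was listed at 0, and the sum was 13.1 to 16.9 FPKM with TGF-β2 and 38.8 to 54.6 FPKM untreated, mostly from Krt18. Krt18 was the only 1 tested, and it fell. Krt19 and Krt7, too low to be tested, went the other way. Krt19 was at 0.718 to 1.37 FPKM with TGF-β2 and 0.170 to 0.475 FPKM untreated, and Krt7 at 0.243 to 0.316 and 0.0527 to 0.0815 FPKM. What part these shifts have in the chemokine levels was not tested. In RNA from a whole culture, fewer cells making a transcript and less of it per cell cannot be told apart.

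The inhibitors act on the mature microRNAs, whose seeds (bases 2 to 8, in capitals) set which messages they can pair with. The sequences are those of RefSeq on GRCm38.p6, shown because a seed match in a chemokine message is what would place it among the possible direct targets.
mmu-miR-31-5p: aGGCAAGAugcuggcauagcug
mmu-miR-27a-3p: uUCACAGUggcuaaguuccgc
mmu-miR-27b-3p: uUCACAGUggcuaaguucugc
The miR-27 pair shares 1 seed and the miR-31 seed is a different one. In the longest annotated 3′ UTR of each chemokine gene (GENCODE vM21), the 7-base match to the miR-31 seed, TCTTGCC, was found in 0 of 9, and it was found in 13.2% of the 9540 tested genes with a 3′ UTR. The match to the miR-27 seed, ACTGTGA, was found in 1 of 9, Ccl2, and in 17.8% of those genes. It lies at bases 11 to 17 of a Ccl2 3′ UTR of 275 bases on chromosome 11.
Ccl2 site: tgtgactcggACTGTGAtgccttaattaa
The 3′ UTRs run from 183 bases in Ccl17 to 5188 bases in Cxcl12, and the shares above are not matched for length. A match describes letters in the message and shows no binding.

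The promoters of 5 of the 9 genes were in the RefSeq set (GRCm38.p6). The 250 bases before the start site are given for a gene that rose with TGF-β2 (Ccl17), a gene whose change did not pass (Cxcl1) and a gene that fell (Cxcl10), because they differ in the motifs they hold. Capitals mark matches, on either strand, to the SMAD box CAGAC, the AP-1 motif TGANTCA, the interferon response (ISRE) core, the STAT motif TTCNNNGAA and the NF-κB consensus.
Ccl17, chr8:94810203-94810452, plus strand: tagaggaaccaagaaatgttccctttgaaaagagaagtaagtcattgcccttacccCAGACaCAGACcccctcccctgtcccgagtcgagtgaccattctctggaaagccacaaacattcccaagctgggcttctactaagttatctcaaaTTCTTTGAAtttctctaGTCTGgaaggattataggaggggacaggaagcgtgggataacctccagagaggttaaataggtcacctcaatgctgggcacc
Cxcl1, chr5:90890995-90891244, plus strand: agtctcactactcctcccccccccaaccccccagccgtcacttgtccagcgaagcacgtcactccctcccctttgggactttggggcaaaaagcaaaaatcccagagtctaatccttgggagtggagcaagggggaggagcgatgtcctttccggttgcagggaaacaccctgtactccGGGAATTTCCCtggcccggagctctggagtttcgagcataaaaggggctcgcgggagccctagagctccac
Cxcl10, chr5:92348890-92349139, minus strand: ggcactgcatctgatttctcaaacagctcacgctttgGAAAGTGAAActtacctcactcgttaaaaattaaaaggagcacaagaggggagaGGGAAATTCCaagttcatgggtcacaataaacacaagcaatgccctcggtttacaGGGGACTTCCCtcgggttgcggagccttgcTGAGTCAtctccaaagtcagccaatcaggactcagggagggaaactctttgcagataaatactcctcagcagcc
Ccl17 holds 3 SMAD boxes, at bases -194 to -190, -188 to -184 and -82 to -78 from the start site, and a STAT motif at -99 to -91. A SMAD box occurs in 42.2% of the 32851 promoters of the same length and the STAT motif in 7.02%. Cxcl1 holds 2 overlapping NF-κB matches at -71 to -61. Cxcl10 holds an NF-κB match at -159 to -150, 2 overlapping ones at -104 to -94, an interferon response core at -213 to -204 and an AP-1 motif at -74 to -68. The NF-κB consensus occurs in 7.25% of promoters, the interferon core in 2.98% and the AP-1 motif in 6.75%. None of these letters is in the 250-base windows of Cx3cl1 and Cxcl12. Such matches are descriptions and say nothing of a factor's binding in these cells.

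The 9 genes spanned a wide range of levels. Cxcl1, a neutrophil attractant acting through Cxcr2, lay between 323 and 398 FPKM and Ccl2, a monocyte attractant acting through Ccr2, between 149 and 432 FPKM over the 6 libraries. In the untreated negative-control library Ccl2 had 0.771% of all listed genes above it. Cxcl12, which retains Cxcr4-bearing cells, lay between 73.9 and 103 FPKM, the interferon-induced Cxcl10 between 32.4 and 41.7 FPKM, and Ccl5, an attractant of T cells and monocytes, between 16.2 and 33.5 FPKM. Ccl7, a relative of Ccl2 that also binds Ccr2, lay between 2.16 and 3.43 FPKM. The untreated order ended with Cx3cl1 at 0.839 to 0.918 FPKM, Cxcl16 at 0.309 to 0.372 FPKM and Ccl17 at 0 to 0.0957 FPKM.

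The order of the genes changed with TGF-β2. Cxcl1 stood first in all 3 TGF-β2 libraries, with a lowest value of 349 FPKM, while the highest value of Ccl2 there was 196 FPKM. In untreated libraries the Cxcl1 and Ccl2 values overlapped, with Ccl2 first in 2 of the 3. Ccl17 took the sixth place in every TGF-β2 library and the last in every untreated one, and with TGF-β2 its 6.83 to 19.5 FPKM overlapped the 16.2 to 21.4 FPKM of Ccl5. Cx3cl1, at 2.54 to 4.29 FPKM, and Ccl7, at 2.16 to 3.43 FPKM, also overlapped with TGF-β2. No other neighbours in the order overlapped in either state.

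The summed level of the 9 genes was 648 FPKM with the miR-31 inhibitor, 674 FPKM with the miR-27 inhibitor and 718 FPKM with the negative control in the TGF-β2 libraries. The untreated libraries summed to 894, 917 and 929.6 FPKM in the same order of inhibitors. Ccl2 made up 22.1% to 27.3% of the sum with TGF-β2 and 38.2% to 46.5% of it untreated. Cxcl1 made up 49.2% to 56.0% with TGF-β2 and 35.6% to 43.4% untreated. Ccl17, for all its rise, was 1.05% to 2.72% of the sum with TGF-β2.

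**Figure D1:**
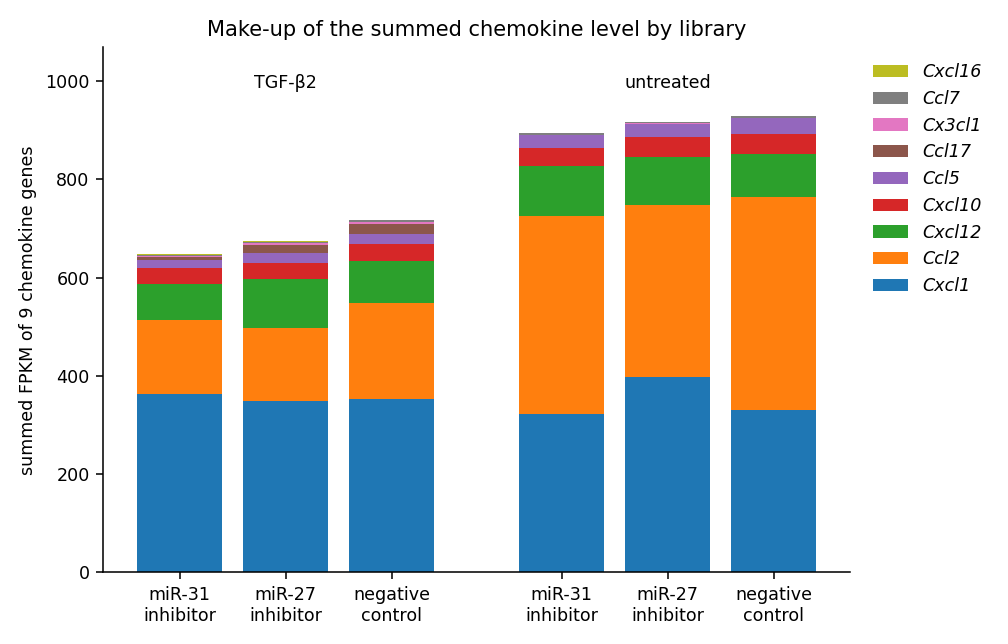
Summed FPKM (y axis, linear from 0) of the 9 chemokine genes in each of the 6 libraries (x axis), stacked by gene, TGF-β2 libraries on the left and untreated ones on the right. The 3 TGF-β2 bars end at 648 to 718 FPKM and the 3 untreated bars at 894 to 929.6 FPKM, and the Ccl2 segment is the one that differs most.

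TGF-β2 raised Ccl17 and Cx3cl1 and lowered Ccl2, Ccl5 and Cxcl10, while the changes of Ccl7, Cxcl1 and Cxcl12 did not pass the test. The test was limma on log2(FPKM + 1) with a term for TGF-β2 and a term for the inhibitor, over the 11816 genes that averaged 1 FPKM or more, called at an adjusted p under 0.05. Of the 8 chemokine genes that met this filter, 2 rose and 3 fell, and over all genes tested 22.7% rose and 27.5% fell. That is 62.5% of them called, beside 50.2% of all genes tested. With p left unadjusted, 5 of 8 were again under 0.05, beside 57.8%. Ccl17 and Cx3cl1 passed the filter through their TGF-β2 libraries alone, since every untreated value of theirs was under 1 FPKM, so these counts describe the genes and support nothing further. The median change of the 8 genes was -0.11 (log2), beside -0.02 for all genes tested.

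Ccl17, whose product attracts T cells bearing Ccr4, stood at 6.83 FPKM with the miR-31 inhibitor and TGF-β2, 16.6 FPKM with the miR-27 inhibitor and TGF-β2 and 19.5 FPKM with the negative control and TGF-β2. Untreated, it was listed at 0 with the miR-31 inhibitor, at 0.0742 FPKM with the miR-27 inhibitor and at 0.0957 FPKM with the negative control. Every TGF-β2 library was far above every untreated library, and the miR-31 inhibitor gave the lowest TGF-β2 level. The fitted rise was 3.74 ± 0.25 on the log2(FPKM + 1) scale (SE of the fit, limma adjusted p = 0.000487, higher in 3 of 3 transfections). With a pseudocount of 0.1 FPKM in place of 1 the rise was 6.45. After correction for relative depth, the untreated values with the negative control and the miR-27 inhibitor stand in a ratio of 1.5, which the whole numbers 3 and 2 match within 3%. The untreated level may thus rest on as few as 3 and 2 fragments. A value of 0 in this table can be a failed estimate, since Eef1a1, a translation factor gene that every cell uses, is listed at 0 throughout.

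Cx3cl1 encodes a chemokine held on a mucin stalk in the cell membrane, where it binds cells bearing Cx3cr1. Its level was 2.54 FPKM with the miR-31 inhibitor and TGF-β2, 3.98 FPKM with the miR-27 inhibitor and TGF-β2 and 4.29 FPKM with the negative control and TGF-β2. The untreated values were 0.918 FPKM with the miR-31 inhibitor, 0.839 FPKM with the miR-27 inhibitor and 0.859 FPKM with the negative control. The untreated libraries lay close together and the TGF-β2 libraries did not overlap them. The fitted rise was 1.28 ± 0.13 (SE of the fit, limma adjusted p = 0.00175, higher in 3 of 3 transfections), and on the linear scale the level was 2.77 and 4.74 times the untreated one with the miR-31 and miR-27 inhibitors and 5.0 times it with the negative control.

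Cxcl16 encodes the other membrane-anchored chemokine of the group, which binds Cxcr6 and also takes up oxidised lipoprotein. Its values were 1.10 FPKM with the miR-31 inhibitor, 1.12 FPKM with the miR-27 inhibitor and 1.13 FPKM with the negative control in the TGF-β2 libraries. They were 0.332 FPKM with the miR-31 inhibitor, 0.309 FPKM with the miR-27 inhibitor and 0.372 FPKM with the negative control untreated. The 3 responses were nearly equal, and the TGF-β2 libraries lay above all untreated ones. Its mean of 0.728 FPKM left Cxcl16 out of the test. When every gene listed above 0 was tested, its rise was 0.66 ± 0.02 (SE of the fit, limma adjusted p = 0.00317 over 22614 genes). Its listed place is shared with Zmynd15, which stayed between 0.0636 and 0.187 FPKM.

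Ccl2 showed the largest fall of the 9 genes in these fits. Its level was 149.9 FPKM with the miR-31 inhibitor and TGF-β2, 149 FPKM with the miR-27 inhibitor and TGF-β2 and 196 FPKM with the negative control and TGF-β2. Untreated libraries held 402 FPKM with the miR-31 inhibitor, 351 FPKM with the miR-27 inhibitor and 432 FPKM with the negative control. The groups did not overlap, and the TGF-β2 level was 37.3%, 42.6% and 45.3% of the untreated one with the miR-31 inhibitor, the miR-27 inhibitor and the negative control. The fitted change was -1.26 ± 0.06 (SE of the fit, limma adjusted p = 0.000228, lower in 3 of 3 transfections).

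Ccl5 fell by a smaller amount. It stood at 16.2 FPKM with the miR-31 inhibitor, 20.2 FPKM with the miR-27 inhibitor and 21.4 FPKM with the negative control in the TGF-β2 libraries. Without TGF-β2 it stood at 26.3 FPKM with the miR-31 inhibitor, 26.2 FPKM with the miR-27 inhibitor and 33.5 FPKM with the negative control. The lowest untreated value exceeded the highest TGF-β2 value, and the fitted change was -0.55 ± 0.07 (SE of the fit, limma adjusted p = 0.00355).

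Cxcl10, which attracts T cells bearing Cxcr3, lay at 32.4, 33.9 and 34.2 FPKM with TGF-β2 and the miR-31, miR-27 and negative-control inhibitors, against 36.3, 41.7 and 40.5 FPKM untreated in the same order. The groups were close without overlapping, and the fitted change was -0.23 ± 0.05 (SE of the fit, limma adjusted p = 0.0128). Without either negative-control library the adjusted p was 0.0769, and without either miR-27 inhibitor library it was 0.0802, so this fall was called only while those libraries were kept. Its size was -0.22 and -0.20 in those fits, in which the genes called numbered 3566 and 3917, against 5926 with all libraries. Its listed place of 92760867 to 92843653 on chromosome 5 (mm9) is shared with Cxcl11 and Art3, which were at or under 0.0236 and 0.204 FPKM, and with a further entry, art3, at or under 0.529 FPKM.

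Ccl7, Cxcl1 and Cxcl12 overlapped between the groups. Ccl7 read 2.18 FPKM with the miR-31 inhibitor, 2.16 FPKM with the miR-27 inhibitor and 3.43 FPKM with the negative control in TGF-β2 libraries, against 2.75, 2.19 and 3.11 FPKM untreated in the same order. Both negative-control libraries were its highest, and the fitted TGF-β2 change was -0.05 ± 0.08 (limma adjusted p = 0.635). Cxcl1 read 363, 349 and 353 FPKM with TGF-β2 and the miR-31, miR-27 and negative-control inhibitors, against 323, 398 and 331 FPKM untreated, and its fitted change was 0.02 ± 0.08 (limma adjusted p = 0.820). Cxcl12 read 73.9, 97.9 and 85.0 FPKM with TGF-β2, against 103, 97.0 and 87.4 FPKM untreated, in the same order of inhibitors. Its fitted change was -0.17 ± 0.11 (limma adjusted p = 0.243), with the miR-31 inhibitor as the only transfection in which it moved by more than 0.05 on the log2 scale. Without either miR-31 inhibitor library the fitted Cxcl12 change was -0.013. A p that misses the threshold does not show that these 3 genes stayed the same.

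**Figure D2:**
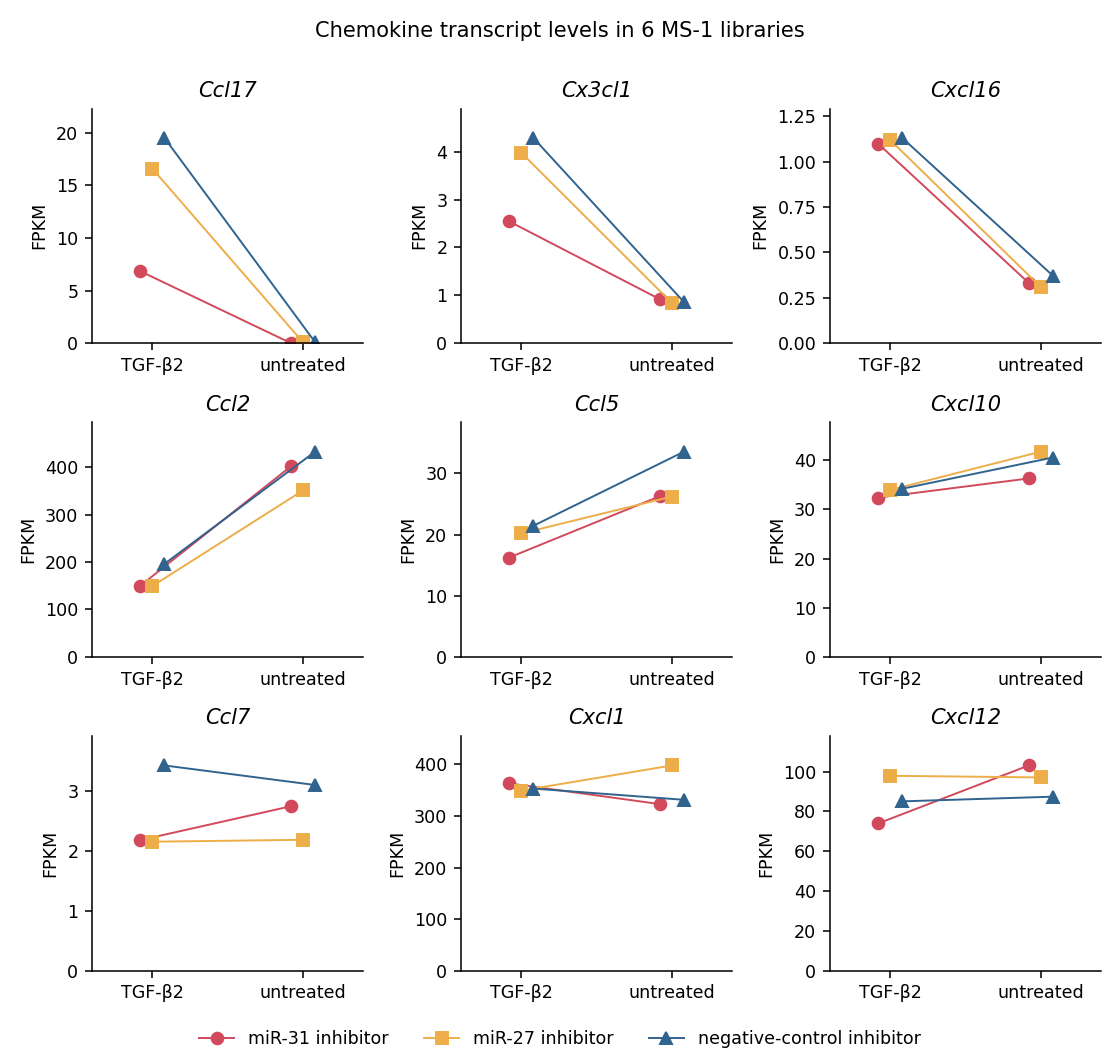
FPKM (y axis, linear from 0, a scale of its own for each gene) of the 9 chemokine genes with TGF-β2 and untreated (x axis), with 1 point per library and a line joining the libraries of a transfection. Ccl17, Cx3cl1 and Cxcl16 lie higher in every TGF-β2 library, Ccl2, Ccl5 and Cxcl10 lie lower in every one, and Ccl7, Cxcl1 and Cxcl12 overlap.

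In count, 3 of the 9 genes had all TGF-β2 values above all untreated values and 3 had all of them below. Among the 11816 genes tested, which do not include the upward Cxcl16, such separation was seen upward in 26.8% and downward in 31.6%. Single transfections can also be read one by one at a difference of 1 or more in log2(FPKM + 1), with no test. Ccl17 and Ccl2 passed that size in all 3 transfections. Cx3cl1 passed it at 1.44 with the miR-27 inhibitor and at 1.51 with the negative control, and stood at 0.89 with the miR-31 inhibitor. Over all genes tested, 2.65%, 2.43% and 2.62% were higher by that much with the miR-31, miR-27 and negative-control inhibitors, and 2.43%, 2.04% and 2.12% were lower.

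**Figure D3:**
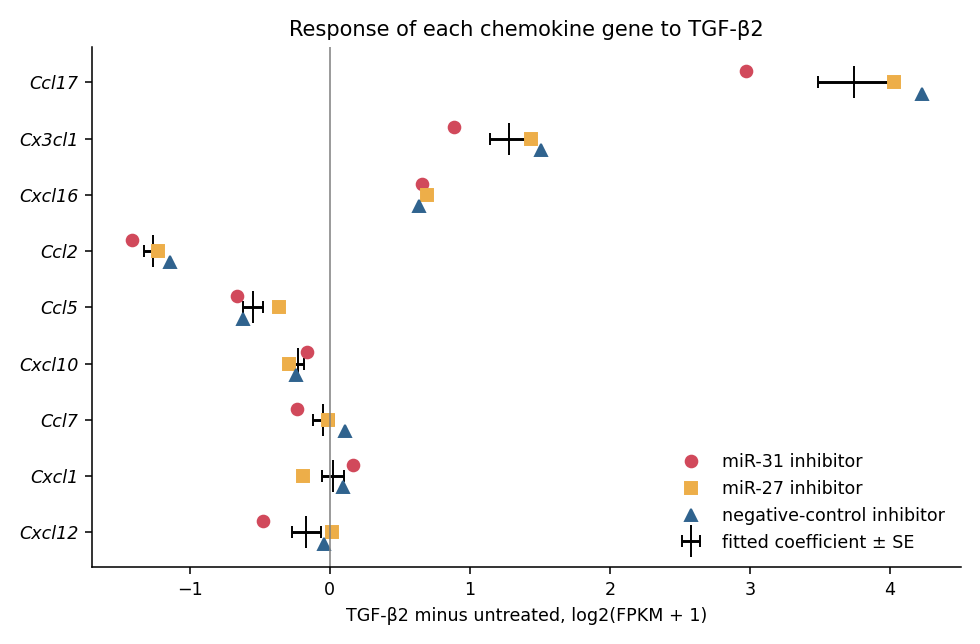
Change with TGF-β2 in log2(FPKM + 1) (x axis) for each chemokine gene (y axis), with coloured points for the 3 transfections and a black bar for the fitted coefficient with its SE where the gene was tested. Ccl17 lies at 2.97 to 4.23, Ccl2 at -1.42 to -1.14, and the points of Ccl7, Cxcl1 and Cxcl12 fall on both sides of 0.

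The inhibitors were compared with the negative control over both TGF-β2 states in the same fit. None of the 8 tested chemokine genes passed for the miR-31 inhibitor (lowest limma adjusted p = 0.228) or for the miR-27 inhibitor (lowest limma adjusted p = 0.295). Calls were rare in the whole table, with 0.0339% of genes for the miR-31 inhibitor and 0.00846% for the miR-27 inhibitor. At an unadjusted p under 0.05 there were 3 of the 8 for the miR-31 inhibitor and 2 for the miR-27 inhibitor, where the shares over all genes were 18.1% and 12.4%.

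Those genes were Ccl5, Ccl7 and Ccl2 for the miR-31 inhibitor and Ccl7 and Ccl2 for the miR-27 inhibitor. Ccl5 differed by -0.36 ± 0.09 with the miR-31 inhibitor, and by -0.21 ± 0.09 with the miR-27 inhibitor (SE of the fit, limma adjusted p = 0.228 and 0.413). Ccl7 differed by -0.30 ± 0.09 and -0.43 ± 0.09 with the same inhibitors (limma adjusted p = 0.238 and 0.295). Ccl2 differed by -0.25 ± 0.08 and -0.35 ± 0.08 (limma adjusted p = 0.244 and 0.295). With 1 library left out at a time, the miR-31 difference ran from -0.36 to -0.13 for Ccl2 and from -0.45 to -0.16 for Ccl7, at the ends where a miR-31 inhibitor library was missing. The miR-27 difference of Ccl5 ran from -0.35 to -0.073, at the ends where a miR-27 inhibitor library was missing. In each of these genes both inhibitors lay below the negative control in both TGF-β2 states. The inhibitors share the negative-control libraries, so a high or low value there moves both differences together. Of the 8 tested genes, 5 lay below the negative control in both states with the miR-31 inhibitor, and the miR-27 inhibitor likewise gave 5, and over all genes tested the shares were 30.7% and 32.5%. The Ccl2 message, the only one of the 9 with a match to the miR-27 seed, was at 76.2% of the negative control with TGF-β2 and at 81.1% of it untreated when miR-27 was inhibited. When miR-31 was inhibited, for which Ccl2 holds no seed match, it was at 76.5% with TGF-β2 and at 92.9% untreated. Whether the miR-27 match has a part in these levels was not tested.

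On the log2(FPKM + 1) scale, Ccl17 and Cx3cl1 differed from the negative control most in the TGF-β2 library of the miR-31 inhibitor. Ccl17 was at 35.0% of the negative-control level in that library, a difference of -1.39 on the log2(FPKM + 1) scale, and at 85.0% (-0.22) with the miR-27 inhibitor and TGF-β2. Cx3cl1 was at 59.3% (-0.58) and 92.8% (-0.09) in the same pair of libraries. In untreated libraries Cx3cl1 stood at 107% of the negative control when miR-31 was inhibited and at 97.7% of it when miR-27 was inhibited. Untreated Ccl17, listed at 0 with the miR-31 inhibitor and at 0.0957 FPKM with the negative control, differed by -0.13. The log2(FPKM + 1) scale shrinks differences at so low a level, so the state in which Ccl17 differed most in ratio is not known. Ccl17 was the only one of the 8 that was lower by 1 or more with the miR-31 inhibitor and TGF-β2, as were 0.254% of all genes tested. None of the 8 was past that size in the untreated libraries of the miR-31 inhibitor, where 0.0846% of all genes were higher and 0.178% lower. None was past it with the miR-27 inhibitor either, where 0.11% were higher and 0.0846% lower with TGF-β2, and 0.118% were higher and 0.178% lower untreated. Cxcl16 was at 97.2% of the negative control with the miR-31 inhibitor and TGF-β2 and at 99.0% with the miR-27 inhibitor and TGF-β2.

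With 6 libraries for 6 conditions, a response of its own for every inhibitor leaves no residual spread. A single inhibitor can be given its own TGF-β2 response if the other inhibitors are taken to share one, which leaves 1 residual degree of freedom, and this test was added after the values were known. In it Ccl17 rose less with the miR-31 inhibitor than in the other transfections, by -1.16 ± 0.11 (SE of the fit, limma adjusted p = 0.0367), and it was the 1 chemokine gene of 8 called, beside 0.542% of all genes tested. That call was lost with a pseudocount of 0.1 FPKM (-0.50, limma adjusted p = 0.231) and with no filter on low values (limma adjusted p = 0.358), and the untreated level with the miR-31 inhibitor is the one listed at 0. Cx3cl1 differed by -0.59 ± 0.08 (limma adjusted p = 0.0961) and Cxcl12 by -0.46 ± 0.08 (limma adjusted p = 0.127) without passing. None of the 8 was called when the miR-27 inhibitor or the negative control had the separate response, where 0.0339% and 0.0762% of all genes were called. At an unadjusted p under 0.05 there were 5, 1 and 0 of the 8 for the miR-31 inhibitor, the miR-27 inhibitor and the negative control, beside 15.9%, 1.64% and 1.67% of all genes.

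The miR-31 inhibitor differences depended on which of its libraries was kept. Without its untreated library, the additive fit sets its TGF-β2 library against the fitted negative-control level and takes the missing spread from the other libraries. It then called 4 chemokine genes lower: Ccl17 by -1.34 (limma adjusted p = 0.00618), Cx3cl1 by -0.56 (limma adjusted p = 0.0211), Ccl7 by -0.45 (limma adjusted p = 0.0327) and Ccl2 by -0.36 (limma adjusted p = 0.0401), among 1137 genes or 9.62% of those tested. Without its TGF-β2 library it called none of them, with Ccl17 at -0.18 (limma adjusted p = 0.412), Cx3cl1 at 0.028 (limma adjusted p = 0.858), Ccl7 at -0.16 (limma adjusted p = 0.394) and Ccl2 at -0.13 (limma adjusted p = 0.435), among 10 genes called in all. The TGF-β2 rise without either miR-31 library was 4.13 for Ccl17 and 1.47 for Cx3cl1, so both were larger without those libraries.

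**Figure D4:**
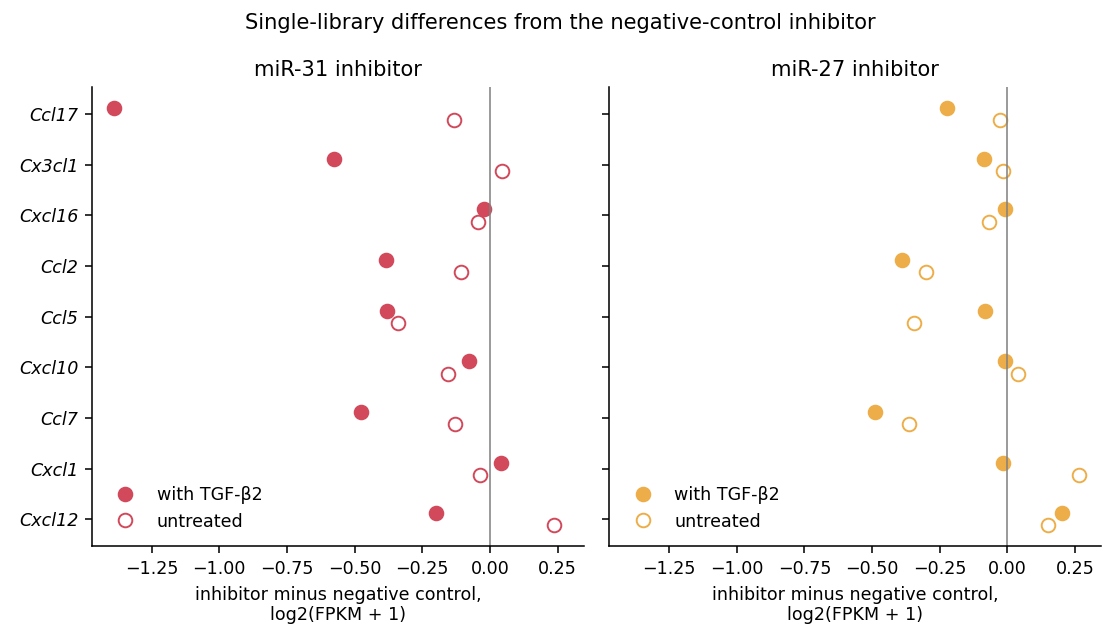
Difference from the negative-control inhibitor in log2(FPKM + 1) (x axis) for each chemokine gene (y axis), with the miR-31 inhibitor on the left, the miR-27 inhibitor on the right, filled points with TGF-β2 and open points untreated. Each point compares 1 library with 1. Ccl17 at -1.39 with the miR-31 inhibitor and TGF-β2 is the farthest from 0, and Ccl2, Ccl5 and Ccl7 lie below 0 in both panels.

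Several of the 9 genes lie in groups of chemokine genes along a chromosome, which lets their neighbours be read beside them (places are those of the table, build mm9). On chromosome 8, Ccl22 (97269584 to 97275288), Cx3cl1 (97296080 to 97306326) and Ccl17 (97334353 to 97335936) follow each other with gaps of 20.8 and 28.0 kb. Cx3cl1 and Ccl17 rose with TGF-β2, while Ccl22, which encodes another ligand of Ccr4, was at or under 0.00713 FPKM in all 6 libraries. On chromosome 11, Ccl2 (81849079 to 81850954) lies 8.26 kb from Ccl7 (81859214 to 81861025). The Ccl2 level was 57.1 to 69.2 times that of Ccl7 with TGF-β2 and 139 to 160.0 times it untreated, on the FPKM scale. Ccl11, Ccl12, Ccl8 and Ccl1, which follow, were at or under 0.0781 FPKM.

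Further along chromosome 11, Ccl5 (83339281 to 83344020) shares a stretch with Ccl9, Ccl6, Ccl3 and Ccl4. Ccl4, like Ccl5 a CC chemokine gene, fell by more than Ccl5, to 2.61 to 3.25 FPKM with TGF-β2, against 11.6 to 12.5 FPKM untreated (-1.72 ± 0.07, limma adjusted p = 0.000139). On chromosome 5, Cxcl1 (91320271 to 91322141) has Cxcl2 next to it, which also binds Cxcr2, and Cxcl2 did not pass either (0.10 ± 0.22, limma adjusted p = 0.724). Its highest value, 10.3 FPKM, was in the TGF-β2 library of the miR-31 inhibitor, and the other 5 lay between 5.46 and 7.18 FPKM. Pf4 in the same stretch, a platelet chemokine gene, fell by 1.46 on the log2 scale, with 3.20 to 4.14 FPKM in TGF-β2 libraries and 10.6 to 13.9 FPKM in untreated ones (limma adjusted p = 0.000999). Cxcl9 and Cxcl11, which like Cxcl10 bind Cxcr3, were at or under 0.0236 FPKM throughout. Cxcl12 on chromosome 6 (117118553 to 117131386) is not part of such a group.

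**Figure D5:**
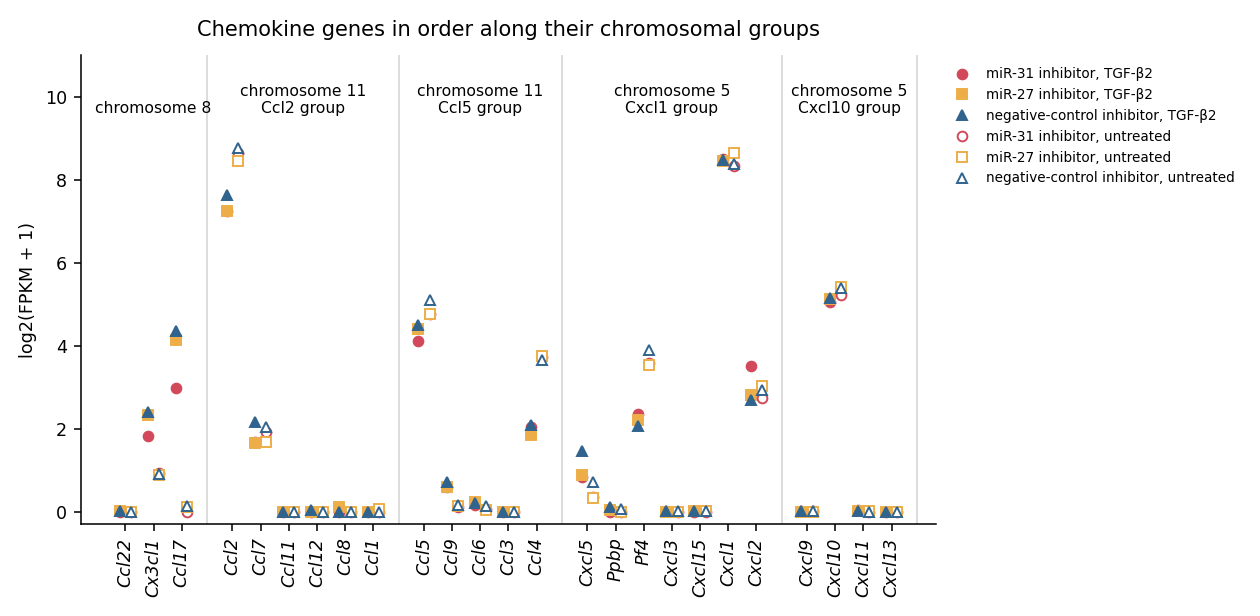
Levels in log2(FPKM + 1) (y axis) of chemokine genes placed in their order along 5 chromosomal groups (x axis), filled symbols with TGF-β2 and open symbols untreated, with 1 symbol per library; Cxcl10 and Cxcl11 share a listed place. Genes next to each other differ widely in level, as do Ccl2 and Ccl7, and Cx3cl1 and Ccl17 rise beside a Ccl22 near 0.

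Of the other chemokine genes, 31 were listed and 5 were tested. Of these 5, Ccl4 and Pf4 fell, Ccl27a rose by 0.28 ± 0.05 (limma adjusted p = 0.0107), and Ccl25 and Cxcl2 did not pass. In the whole set of genes tested, 22.7% rose and 27.5% fell. A further 10 of the 31 were listed at 0 in every library. Cxcl5 lay under the filter, at 0.793 to 1.73 FPKM with TGF-β2 and 0.263 to 0.633 FPKM untreated. Its highest value, 1.73 FPKM, was with the negative control and TGF-β2. Ccl9, also under the filter, was at 0.499 to 0.651 FPKM with TGF-β2 and 0.0735 to 0.110 FPKM untreated.

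The receptors named here for the 9 chemokines were mostly close to 0 in these cells. Ccr1 was listed at 0, and Ccr2 and Ccr4 were at or under 0.0283 FPKM. Cxcr2, Cxcr3, Cxcr6 and Cx3cr1 were at or under 0.715, 0.241, 0.448 and 0.320 FPKM. Of 24 receptor genes listed, 3 were tested, of which 1 rose and 2 fell, where 22.7% of all genes tested rose and 27.5% fell. Cxcr7, which encodes a scavenger of Cxcl12, fell by 1.39 on the log2 scale, to 1.19, 1.37 and 1.78 FPKM with TGF-β2 and the miR-31, miR-27 and negative-control inhibitors, against 5.63, 5.07 and 5.51 FPKM untreated (limma adjusted p = 0.000302). Cxcr4, the signalling receptor of Cxcl12, changed by -0.45 ± 0.13 (limma adjusted p = 0.0378), with 2.97 to 5.57 FPKM in TGF-β2 libraries and 4.09 to 8.69 FPKM in untreated ones, which overlap. Ccrl2, an atypical receptor that presents chemerin, rose by 0.78 ± 0.05 (limma adjusted p = 0.000386).

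The NF-κB pathway is a main inducer of Ccl2, Cxcl1 and Ccl5 in endothelial cells. Of 25 genes of the pathway, all tested, 7 rose, 3 fell and 15 did not pass, with a median change of 0.01 beside -0.02 for all genes. The shares of all genes tested were 22.7% for a rise and 27.5% for a fall. Cd40, a receptor that activates the pathway, rose by 2.98 ± 0.04. Nfkbiz (0.91) and the inhibitor gene Tnip1 (0.76) rose as well, while Traf1, an adaptor, fell by 1.79 on the log2 scale. The genes of the subunits were divided. Nfkb1 rose by 0.37, Nfkb2 fell by 0.54 (limma adjusted p = 0.00243 and 0.00135), and Rela stood at -0.22 without passing (limma adjusted p = 0.0642).

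Interferon regulatory factors and STAT proteins act upstream of Cxcl10 and other chemokine genes. Of 22 such genes tested, 7 rose, 6 fell and 9 did not pass (median change -0.00). Among all genes tested, 22.7% rose and 27.5% fell. Irf8 fell by 1.76 on the log2 scale, to 3.81 to 6.18 FPKM with TGF-β2, against 17.0 to 19.9 FPKM untreated. Socs1, which restrains interferon signalling, fell by 0.53 and Irf5 by 0.48, while Stat3 rose by 0.58 ± 0.04 (limma adjusted p = 0.000486). Of the remaining interferon regulatory factor genes that passed, Irf1 rose by 0.46 and Irf2 by 0.23, and Irf7 fell by 0.20.

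Chemokines are also set by cutting of the protein and by decay of the message. Adam10 and Adam17, which release Cx3cl1 and Cxcl16 from the membrane, stood at 0.22 and 0.10 without passing (limma adjusted p = 0.0724 and 0.165). Of 6 proteases tested, Mmp2, which can trim Ccl7 and Cxcl12, rose by 2.51 ± 0.05, and the cathepsin genes Ctsb and Ctsl fell by 0.48 and 0.24 on the log2 scale. Dpp4, which trims Cxcl10 and Cxcl12, was at or under 0.0127 FPKM. Of 11 genes of message decay, 1 rose and 3 fell: Tia1 rose by 0.30, and the AU-rich element binding genes Zfp36l2, Zfp36l1 and Zfp36 fell by 0.58, 0.21 and 0.19. For the protease and decay lists alike, the shares over all genes tested were 22.7% rising and 27.5% falling. The shifts in these lists were not tested for a part in the chemokine changes.

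The genes closest to Ccl17, Cx3cl1 and Ccl2 in profile over the 6 libraries were found by the distance between centred log2(FPKM + 1) values among the 11816 genes tested. Those closest to Ccl17 were Ctsw (distance 0.70), Acta2 (0.75) and D0H4S114 (0.81). Ctsw, a protease gene, had 10.5, 13.8 and 15.9 FPKM with TGF-β2 and the miR-31, miR-27 and negative-control inhibitors, against 0.173, 0.107 and 0.0734 FPKM untreated. Those closest to Cx3cl1 were Slc6a6 (0.24), a taurine transporter gene, Heg1 (0.24), and Tgfb3 (0.25), a TGF-β ligand gene. Those closest to Ccl2 were A130040M12Rik (0.24), the Cxcl12 scavenger gene Cxcr7 (0.25) and AK036949 (0.25). All of these closest genes had their lowest TGF-β2 value with the miR-31 inhibitor, and they were chosen on these same values. Likeness over 6 libraries that mostly divide by TGF-β2 is a description of these profiles only.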

How the data were processed

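The authors deposited 1 table of FPKM values for 6 RNA-seq libraries of MS-1 cells. Per the submitters' processing notes, TopHat2 2.0.9, Cufflinks 2.1.1 and the mouse build mm9 were used. The annotation, filters and counting options are not given in the sources used here. Per the labels' protocols, ribosomal RNA was removed and directional libraries were sequenced. Listed starts count from 0 (end minus start equals the RefSeq gene length for 5685 of 19389 shared names, and is 1 short of it for 384), so 1 was added. The deposited FPKM values were taken to log2(FPKM + 1), which understates changes of low genes, with no rescaling.

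The 11816 genes averaging 1 FPKM or more were fitted with limma 3.58.1 in R 4.3.3 (inhibitor and TGF-β2 terms, 2 residual degrees of freedom, prior 2.87, Benjamini-Hochberg adjustment over all genes tested, 2-sided). The inhibitor term pairs the libraries with the same inhibitor, called a transfection here. Whether such a pair came from 1 culture is not described in the labels. A fit with a separate TGF-β2 response for 1 inhibitor (1 residual degree of freedom) was added after the data were seen. Relative depth is the most frequent ratio between libraries of values under 0.05 FPKM. The additive fit was run on simulated data with planted TGF-β2 changes and independent noise. Those data held no response particular to 1 inhibitor, so they cannot check how such responses act as spread. The members, gene lists and tests were chosen with earlier results of these data known. All 9 members were named, with the 4 largest called TGF-β2 changes of each pathway list (fewer where fewer passed), the members' receptors (some items are not reported here) and the 3 closest profiles of members changing by at least 1. Other genes were named after their values were seen. Among them were Rela, Adam10, Adam17, Dpp4, Cxcl5, Nfkb1, Nfkb2, Irf1, Irf2, Irf7, marker genes and chromosomal neighbours. Analyses used Python 3.11.15. No proteins were used here.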

Additional observations from a re-analysis of the deposited data

Results flagged for a closer look

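For 3 chemokine genes the change with TGF-β2 had opposite signs in different transfections. Each value rests on 1 library per condition, and with a separate response for 1 inhibitor at a time these genes did not pass (lowest limma adjusted p = 0.127, Cxcl12 with the miR-31 inhibitor). Ccl7 changed by -0.24 with the miR-31 inhibitor, by -0.014 with the miR-27 inhibitor and by 0.11 with the negative control, on the log2(FPKM + 1) scale. Cxcl1 changed by 0.17 with the miR-31 inhibitor, by -0.19 with the miR-27 inhibitor and by 0.092 with the negative control. Cxcl12 changed by -0.47 with the miR-31 inhibitor, by 0.012 with the miR-27 inhibitor and by -0.039 with the negative control. The TGF-β2 response of Ccl17 with the miR-31 inhibitor differed from that in the other transfections by -1.16 (limma adjusted p = 0.0367), a test that assumes that the miR-27 and negative-control responses are the same and that lost its call with another pseudocount and with no filter.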

How the results depend on the processing

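The rises of Ccl17 and Cx3cl1 and the falls of Ccl2 and Ccl5 were called under each alternative in which the gene was tested, while the fall of Cxcl10 was not called in the fits given beside it. For the TGF-β2 change, leaving out either library of a transfection gives the same values as leaving out both, so those alternatives are not separate checks. With a mean of 5 FPKM as the filter, 1 member rose, since Cx3cl1 and Ccl7 were then not tested. Genes called with TGF-β2 numbered 5926, and 3566 with both negative-control libraries left out, 3917 with both miR-27 libraries left out and 5450 with no replicate block (no inhibitor term), which changed no member's call. Leaving out each library in turn gave 3566 to 6087 genes, and 0 to 4 members called for the miR-31 inhibitor. The cause of these shifts was not tested. Fits with libraries left out hold fewer samples, and 6087 genes were called with both miR-31 libraries left out. Signs turned in 22 of the values for single genes, none of them called. The Cxcl1 difference with the miR-31 inhibitor was -0.0042 under median-of-ratios scaling and -0.0073 under upper-quartile scaling. The TGF-β2 change of Cxcl1 was -0.0099 without the negative-control libraries and -0.048 without the miR-31 libraries, which gave 0.048 for Ccl7. With each library left out in turn, the TGF-β2 change ran from -0.13 to 0.048 for Ccl7, from -0.048 to 0.13 for Cxcl1 and from -0.26 to -0.013 for Cxcl12. For the miR-31 inhibitor the ranges were -0.56 to 0.028 (Cx3cl1), -0.11 to 0.11 (Cxcl1) and -0.21 to 0.25 (Cxcl12). For the miR-27 inhibitor they were -0.49 to 0.24 (Ccl17), -0.23 to 0.12 (Cx3cl1), -0.036 to 0.28 (Cxcl1) and -0.030 to 0.061 (Cxcl10). Another 432 values for single genes kept direction and call, though some moved in size. For the separate miR-31 response, members called were 1, but 0 with a pseudocount of 0.1 FPKM, 0 with no filter and 3 (Ccl17, Cx3cl1 and Cxcl12) with the trend and robust options. That test has no fit with a library left out. Inhibitor differences have no value without both negative-control libraries. A left-out library leaves its pair with 1 sample, assumed to vary like the others. With no counts in the table, precision at low levels such as that of untreated Ccl17 is unknown.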
